A study of Mus musculus with 7 samples.

Results

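Chaperones and co-chaperones of the heat shock families were measured in myoblasts, the precursor cells of skeletal muscle, from mice that lack Hmga2 and from wild type mice. The group was fixed by name and holds 48 genes: the heat shock factors Hsf1 and Hsf2, HSP70 and HSP110 proteins, HSP90 proteins, small heat shock proteins, J-domain proteins, BAG factors, HSP90 co-chaperones and subunits of the CCT chaperonin. Hspa9, Hspd1 and Hspe1 are also listed, although these 3 act in mitochondria and not in the cytosol. Of the 48 genes, 46 were measured, out of 18193 genes with a probe set, and Hsf1 and Hsp90ab1 are not analysed here. Each gene was read from its brightest probe set over the 7 samples.

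The samples were 4 preparations of C57BL/6 myoblasts from HMGA2 -/- mice (Hmga2 KO) and 3 from C57BL/6 wild type mice, each on an Affymetrix expression array. By sex, 2 of the Hmga2 KO samples came from males (replicates 1 and 3) and 2 from females (replicates 2 and 4), and the 3 wild type samples came from females. Sex therefore differed between the groups, and changes in the females alone are given beside those over all samples for the members on which the results turn. Samples are titled as biological replicates, with no age, passage or culture condition given in the sources used here. The targeted gene averaged 95.8 ± 7.70 in Hmga2 KO samples (SD, n = 4) and 11599 ± 1440 in wild type samples (SD, n = 3), a log2 change of -6.90 with an adjusted p of 1e-08.

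Molecular chaperones bind unfolded or partly folded proteins and keep them from aggregating. HSP70 works in cycles set by J-domain proteins, which start ATP hydrolysis, and by nucleotide exchange factors of the HSP110 and BAG families, and it can hand clients to HSP90 through co-chaperones. Small heat shock proteins hold unfolding clients without ATP, and several of them are rich in skeletal and heart muscle, where they bind the contractile and intermediate filament apparatus. Heat shock factors drive many of these genes under stress through heat shock elements, which are inverted repeats of the bases GAA.

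None of the chaperones passed the test. At an adjusted p under 0.05 for Hmga2 KO against wild type, limma called 0 of 46 members, against 0.0275% of all genes. The smallest adjusted p among the members was 0.249, for Hspb3. At an unadjusted p under 0.05, 10 members had lower values in Hmga2 KO samples (21.7%, against 10.3% of all genes) and 2 had higher values (4.35%, against 2.99% of all genes). Outside the dimmest 40% of genes, which leaves out 3 of the 46 members, the background was 13.8% lower and 3.44% higher. Without wild type replicate 2 the lower count was 4, without wild type replicate 3 or Hmga2 KO replicate 3 it was 6, and without wild type replicate 1 it was 15. The higher count was 0 without wild type replicate 3, Hmga2 KO replicate 1 or Hmga2 KO replicate 3, and 1 without wild type replicate 1, wild type replicate 2 or Hmga2 KO replicate 2. The shares over all genes in these fits are not given, so the shifts cannot be read as particular to the members. The changes were mostly small and of 1 sign: 42 of the 46 members had a log2 change below 0 (91.3%), against 67.6% of all genes. The median log2 change was -0.16 over the members and -0.07 over all genes. The members were brighter as a group, with a median log2 level of 11.77 against 8.33 over all genes. Neither the share below 0 nor the median change was set against genes of like brightness. All 4 Hmga2 KO samples lay below all 3 wild type samples for 6 members (13%, against 9.29% of all genes and 11.1% of those outside the dimmest 40%), namely Hspb3, Hspb7, Hspb8, Stip1, Fkbp4 and Cdc37, and above them for Hspa4l (2.17%, against 2.37% of all genes). Hspb7 is in these 6 and in the 10 above, but is itself within the dimmest 40%. The shares outside the dimmest 40% are therefore not for a like set of genes.

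**Figure D1:**
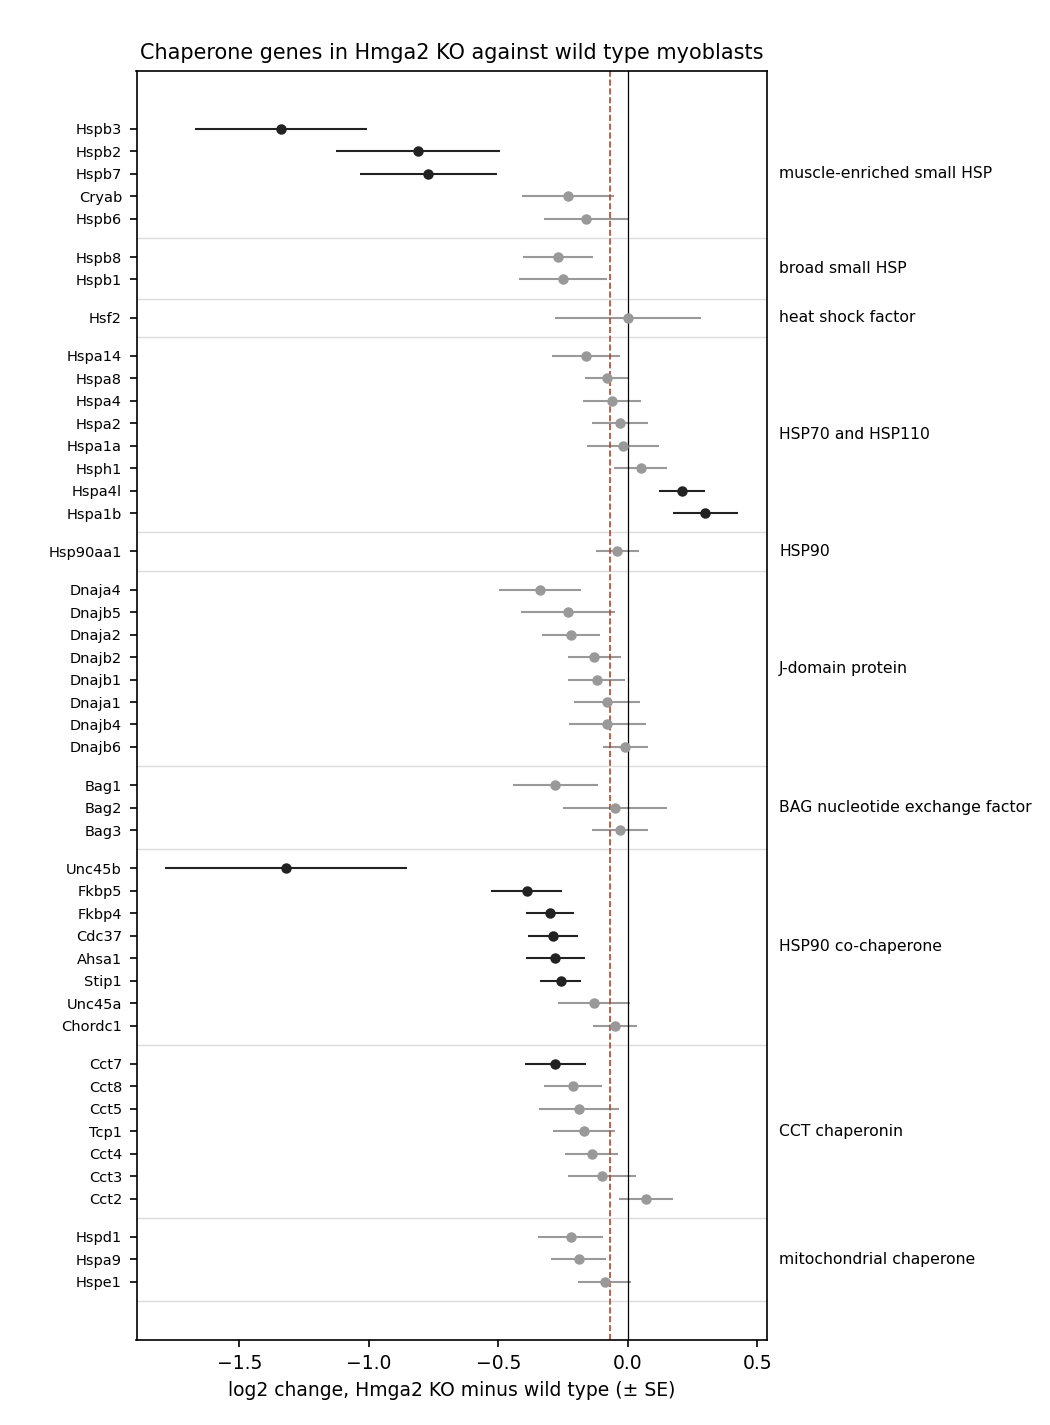
Log2 change, Hmga2 KO minus wild type, of each of the 46 measured members with its SE as a bar, grouped by role; black points have an unadjusted p under 0.05, and the dashed line is the median of all genes, -0.07. Hspb3 and Unc45b lie farthest below 0, at -1.34 and -1.32, and 42 of the 46 members have a change below 0.

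The 5 small heat shock proteins enriched in muscle had a median log2 change of -0.77 over all 7 samples, against -0.13 over the 41 other members. Their changes ran from -1.34 for Hspb3 to -0.16 for Hspb6. The median of the 5 was -0.49 without wild type replicate 2 and -0.32 in females alone, where that of the HSP90 co-chaperones was -0.33. Hspb3, which pairs with Hspb2 in a muscle-specific small heat shock complex, had intensities of 318, 827, 539 and 723 in Hmga2 KO replicates 1 to 4, against 1003, 1971 and 1500 in wild type replicates 1 to 3. The groups did not overlap, and the lowest value was that of the male Hmga2 KO replicate 1. On the log2 scale the change was -1.34 with an SE of 0.331, which is a fold of 0.39 (95% interval 0.23 to 0.66), with an unadjusted p of 0.0029 and an adjusted p of 0.249. In females alone the change was -0.89, with an unadjusted p of 0.0095 and an adjusted p of 0.557.

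The stretch of genome before the Hspb3 start is shown because it holds both kinds of element searched for in the promoters: a heat shock element of 2 units and the consensus of MEF2, a muscle transcription factor. The 250 bases before the start, at chr13:113663677-113663926 on the minus strand of GRCm38.p6 (RefSeq), read 5′ to 3′ as follows, with both matches in capitals, the heat shock element from -224 and the MEF2 consensus from -12 relative to the start.
Hspb3: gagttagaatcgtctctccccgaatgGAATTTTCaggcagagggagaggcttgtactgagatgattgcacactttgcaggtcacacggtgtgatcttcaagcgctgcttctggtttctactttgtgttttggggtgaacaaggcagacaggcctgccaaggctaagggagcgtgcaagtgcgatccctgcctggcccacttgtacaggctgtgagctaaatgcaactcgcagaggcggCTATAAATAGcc
The MEF2 consensus was found in the promoter of Hspb3 and of no other member with a window, and in 0.636% of all genes with one. A match of letters is a description of the sequence and shows neither binding nor use.

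Hspb2, the partner of Hspb3, had intensities of 547, 1263, 874 and 1060 in Hmga2 KO replicates 1 to 4, against 1161, 2449 and 1353 in wild type replicates 1 to 3. The groups overlapped, since the female Hmga2 KO replicate 2 lay above wild type replicate 1. The log2 change was -0.81 (SE 0.318, adjusted p = 0.338), but -0.49 without wild type replicate 2 and -0.44 in females alone. Hspb7, a small heat shock protein of heart and skeletal muscle, had 77.9, 166, 81.8 and 136 in Hmga2 KO replicates 1 to 4, against 171, 227 and 171 in wild type replicates 1 to 3. Its groups did not overlap, and the 2 male Hmga2 KO samples were the lowest, near the dim end of the arrays, where folds are understated. The log2 change of Hspb7 was -0.77 (SE 0.264, adjusted p = 0.305), and -0.32 in females alone.

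Cryab, alpha-B crystallin, which guards desmin filaments, had 7099, 11175, 8869 and 9570 in Hmga2 KO replicates 1 to 4, against 8661, 12862 and 10758 in wild type replicates 1 to 3. The ranges overlapped across most of their width. Its log2 change was -0.23 (SE 0.177, adjusted p = 0.585), but -0.09 without wild type replicate 2, -0.11 without Hmga2 KO replicate 1 and -0.04 in females alone. Hspb6, a small heat shock protein known from smooth, skeletal and heart muscle, had 1689, 1747, 1970 and 1433 in Hmga2 KO replicates 1 to 4, against 1576, 1792 and 2437 in wild type replicates 1 to 3. The groups overlapped here as well, with a log2 change of -0.16 (SE 0.164, adjusted p = 0.685), 0.02 without wild type replicate 3 and -0.27 in females alone. Unlike the other 4 genes of the group, Hspb6 had its lowest Hmga2 KO value in a female, replicate 4.

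Of the small heat shock proteins made in most cells, Hspb8, which works with Bag3 to clear damaged filament proteins, had 7834, 10996, 10377 and 10918 in Hmga2 KO replicates 1 to 4, against 11303, 13043 and 11578 in wild type replicates 1 to 3. The groups did not overlap, and Hmga2 KO replicate 1 lay well below the other Hmga2 KO samples. Its log2 change was -0.27 (SE 0.135, adjusted p = 0.425), and -0.15 without Hmga2 KO replicate 1 and -0.13 in females alone. The other 2 probe sets of Hspb8 gave changes of -0.30 and -0.50. Hspb1, which also caps actin filaments, had 2174, 2908, 2498 and 2223 in Hmga2 KO replicates 1 to 4, against 2391, 3797 and 2683 in wild type replicates 1 to 3. Wild type replicate 2 was the highest, and the groups overlapped (log2 change -0.25, SE 0.171, adjusted p = 0.536). The change of Hspb1 was -0.06 without that sample and -0.19 in females alone.

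**Figure D2:**
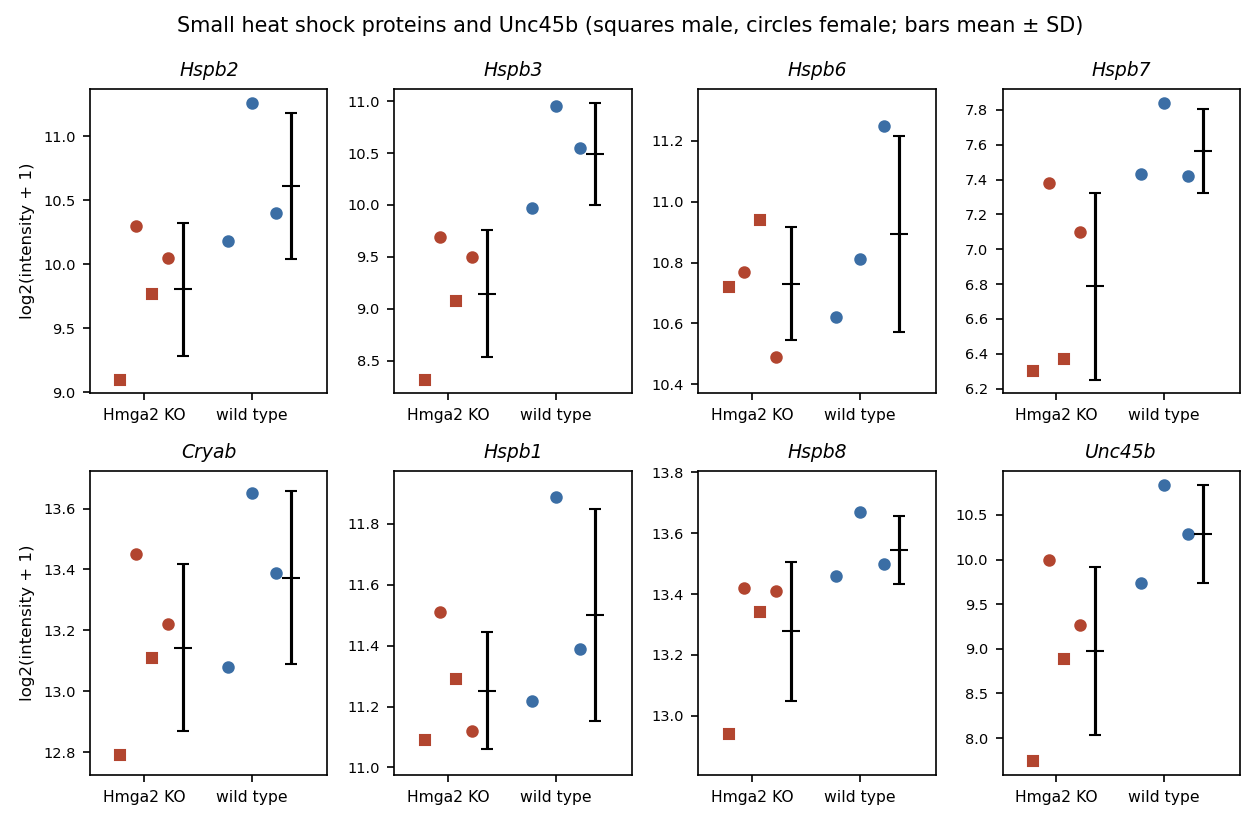
Log2(intensity + 1) of the small heat shock proteins and Unc45b in each sample, Hmga2 KO left of wild type, squares male and circles female, bars mean ± SD. Each panel has its own scale, and the male Hmga2 KO samples are the lowest for Hspb2, Hspb3, Hspb7 and Unc45b.

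Unc45b, the muscle chaperone that folds myosin heads together with HSP90, followed the same samples as Hspb3. It had 212, 1014, 473 and 618 in Hmga2 KO replicates 1 to 4, against 854, 1831 and 1248 in wild type replicates 1 to 3. The male Hmga2 KO replicates 1 and 3 were the lowest, and the female replicate 2 lay above wild type replicate 1, so the groups overlapped. The log2 change was -1.32 (SE 0.467, adjusted p = 0.312), and -0.66 in females alone. Its general counterpart Unc45a ranged from 832 to 1053 in Hmga2 KO samples and from 830 to 1184 in wild type samples, with a log2 change of -0.13.

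The order of the 4 Hmga2 KO samples in Unc45b, lowest to highest 1, 3, 4 and 2, was shared by 8 of the 46 members, against 9.61% of all genes. These were Hspb2, Hspb3, Hspb7, Cryab, Hspb8, Dnaja4, Dnajb5 and Unc45b itself, and the order was picked after the values of Unc45b were seen. The same order held for 22 of 28 marker genes of differentiated muscle fibres, such as myosin heavy chains, Acta1 and Mb. All 28 fibre markers had a log2 change below 0, with a median of -0.63, 15 of them at an unadjusted p under 0.05 (against 10.3% of all genes) and 0 at an adjusted p under 0.05. In females alone their median was -0.26, with 7 of the 28 lower at an unadjusted p under 0.05 (against 4.62% of all genes). Their summed intensity ranged from 53411 to 123789 in Hmga2 KO samples and from 105577 to 152268 in wild type samples. Relative to each gene's mean over the 7 samples, the mean log2 level of the fibre markers was -0.99, 0.31, -0.35 and -0.13 in Hmga2 KO replicates 1 to 4, against 0.10, 0.68 and 0.38 in wild type replicates 1 to 3. On the same scale the mean of the muscle-enriched small heat shock proteins was -0.76, 0.11, -0.35 and -0.14 in Hmga2 KO replicates 1 to 4, against 0.05, 0.69 and 0.40 in wild type replicates 1 to 3. Both lists were lowest in Hmga2 KO replicate 1 and highest in wild type replicate 2. In these bulk samples, fewer fibre-like cells and less of these transcripts per cell cannot be told apart, and the part of the fibre content in the small heat shock values was not tested.

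**Figure D3:**
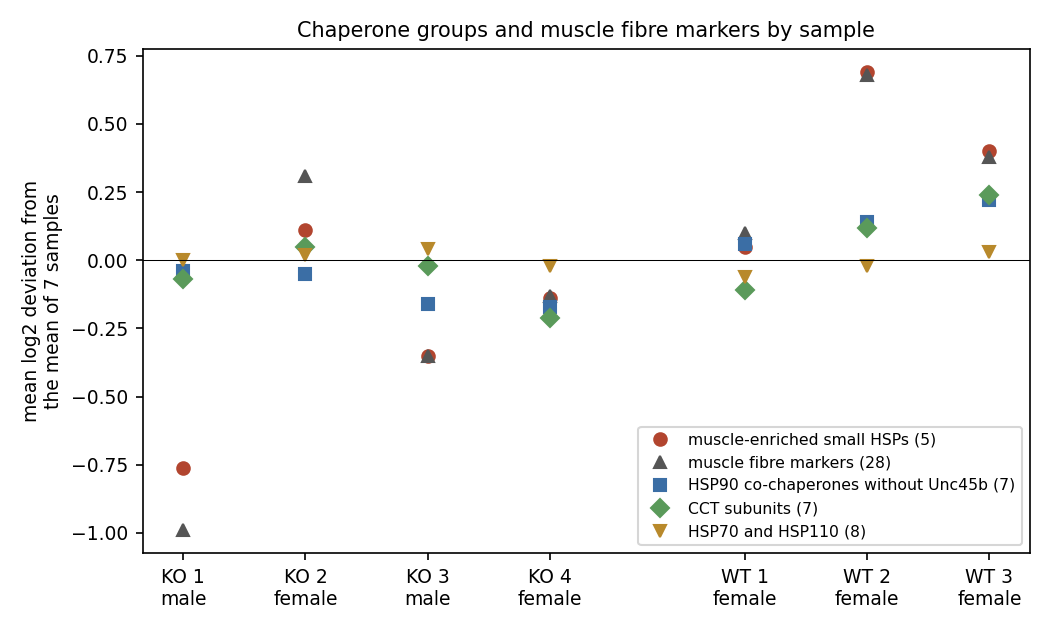
Mean over the genes of each of 5 lists of the log2 intensity minus the gene's mean over the 7 samples, for each sample (KO, Hmga2 KO; WT, wild type), with the number of genes in the legend. The muscle-enriched small heat shock proteins and the fibre markers are both lowest in Hmga2 KO replicate 1, at -0.76 and -0.99, whereas the HSP90 co-chaperones other than Unc45b lie between -0.17 and -0.04 in Hmga2 KO samples and between 0.06 and 0.22 in wild type samples.

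Of the other markers, 9 of 10 fibroblast genes were measured, and their summed intensity was 15581 to 17090 in Hmga2 KO samples and 13270 to 13387 in wild type samples. Mgp averaged 4581 and 2750, and its adjusted p of 0.158 was the smallest of the list. Log2 changes were 1.67 for Smoc2, 0.80 for Islr, 0.73 for Mgp, 0.45 for Pdgfra and 0.12 for Col3a1, but -0.71 for Col1a1. Near the floor, Dcn had 0.32, Lum 0.04 and Dpt 0.01. The sums of 8 myoblast markers were 53154 to 70182 in Hmga2 KO samples and 64308 to 72046 in wild type samples. Myf5 and Pax7 had log2 changes of 0.64 and 0.10, and the other myoblast markers had -0.57 to -0.06. Smooth muscle and pericyte markers, 6 of 6 measured, summed to 8719 to 15383 in Hmga2 KO samples and to 3400 to 9863 in wild type samples. Rgs5 and Mcam were the brightest of them, with log2 changes of 1.72 (adjusted p = 0.296) and 0.65 (adjusted p = 0.354). The others had log2 changes of 0.39 for Cnn1, near the floor, 0.02 for Cspg4, 0.00 for Myh11 and -0.03 for Pdgfrb. The part of these cell type markers in the chaperone values was not tested. Leukocyte markers summed to 480 to 500 over 6 genes in Hmga2 KO samples and to 485 to 505 in wild type samples, near the floor of the arrays. Actb, whose 3′ over 5′ probe set ratio is a sign of RNA integrity, had a ratio that was 1.64 to 1.74 in Hmga2 KO samples and 1.61 to 1.62 in wild type replicates 1 and 3, and 1.94 in wild type replicate 2. That replicate also held the highest values of Hspb1, Hspb2, Hspb3, Hspb7, Hspb8, Cryab and Unc45b, and the part of RNA integrity in them was not tested.

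HSP90 co-chaperones made in most cells also had lower values in Hmga2 KO samples. Without Unc45b, 5 of the 7 co-chaperones were lower at an unadjusted p under 0.05, against 10.3% of all genes and 13.8% of those outside the dimmest 40%. For 3 of the 7 the groups did not overlap, against 9.29% and 11.1%, and the median log2 change was -0.28. In females alone the median was -0.33, against -0.05 over all genes. Stip1, which bridges HSP70 and HSP90, had 3357, 3413, 3308 and 3473 in Hmga2 KO replicates 1 to 4, against 4046, 4114 and 3994 in wild type replicates 1 to 3. Both groups were tight and did not overlap, with a log2 change of -0.26 (SE 0.0805), a fold of 0.84 (95% interval 0.74 to 0.95), and an adjusted p of 0.294. Leaving out any 1 sample kept the change of Stip1 between -0.27 and -0.25, and females alone gave -0.23. Over all alternatives the change of Stip1 ran from -0.27 to -0.19.

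Fkbp4, an immunophilin of steroid receptor complexes, had 1297, 1247, 1217 and 1108 in Hmga2 KO replicates 1 to 4, against 1414, 1542 and 1543 in wild type replicates 1 to 3. The groups did not overlap (log2 change -0.30, SE 0.0934, adjusted p = 0.294), and females alone gave -0.35. Only the brightest of its probe sets averaged above 100, and the change was -0.16 with the mean of all its probe sets and -0.01 with the most variable, a dim one. Cdc37, which brings protein kinases to HSP90, had 1795, 1569, 1556 and 1580 in Hmga2 KO replicates 1 to 4, against 1832, 2089 and 2022 in wild type replicates 1 to 3. Hmga2 KO replicate 1 stood above the other Hmga2 KO samples and just below the lowest wild type sample. The log2 change was -0.29 (SE 0.0968, adjusted p = 0.305), with -0.33 in females alone and -0.21 from the second probe set of Cdc37.

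Both genes carry 1 heat shock element of 2 units in their promoter windows, and the sequences are shown to place it. The stretches are the 250 bases before the start, 5′ to 3′, on the minus strand of GRCm38.p6 (RefSeq), at chr6:128438657-128438906 for Fkbp4 and chr9:21149935-21150184 for Cdc37, with the element in capitals. It begins at -151 in Fkbp4 and at -170 in Cdc37.
Fkbp4: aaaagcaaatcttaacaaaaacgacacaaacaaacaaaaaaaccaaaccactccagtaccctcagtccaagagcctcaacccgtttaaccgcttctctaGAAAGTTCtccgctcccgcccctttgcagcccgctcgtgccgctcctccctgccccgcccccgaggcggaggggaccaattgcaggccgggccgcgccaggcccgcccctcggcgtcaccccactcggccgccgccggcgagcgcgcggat
Cdc37: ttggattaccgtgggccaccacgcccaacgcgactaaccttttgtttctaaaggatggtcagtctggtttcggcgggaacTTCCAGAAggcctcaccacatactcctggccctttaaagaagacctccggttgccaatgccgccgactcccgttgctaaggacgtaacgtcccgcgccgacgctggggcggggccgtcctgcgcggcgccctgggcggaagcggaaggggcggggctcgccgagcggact
The elements differ in the order of their 2 units: that of Fkbp4 has the form GAANNTTC, and that of Cdc37 the form TTCNNGAA.

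Ahsa1, which speeds the ATPase of HSP90, had 1925, 1875, 1751 and 1539 in Hmga2 KO replicates 1 to 4, against 1910, 2263 and 2298 in wild type replicates 1 to 3. Hmga2 KO replicate 1 lay just above wild type replicate 1, so the groups overlapped (log2 change -0.28, SE 0.115, adjusted p = 0.345; -0.34 in females alone). A second, dim probe set of Ahsa1 gave 0.15, and with the mean of both the change was -0.07. Fkbp5, an immunophilin that dampens glucocorticoid receptor binding, had 569, 501, 426 and 513 in Hmga2 KO replicates 1 to 4, against 727, 547 and 711 in wild type replicates 1 to 3. Wild type replicate 2 lay among the Hmga2 KO values (log2 change -0.39, SE 0.137, adjusted p = 0.308; -0.37 in females alone). Quantile normalization gave smaller changes: -0.21 for Ahsa1, -0.31 for Fkbp5, -0.22 for Fkbp4 and -0.21 for Cdc37. Chordc1, an HSP90 partner with a run of heat shock elements around its start, ranged from 7564 to 8248 in Hmga2 KO samples and from 7802 to 8383 in wild type samples, a log2 change of -0.05. Hsp90aa1, the stress-responsive HSP90 itself, had 16262, 16125, 16130 and 16892 in Hmga2 KO replicates 1 to 4, against 16667, 16388 and 17508 in wild type replicates 1 to 3. Those groups overlapped, with a log2 change of -0.04 (95% interval of the fold 0.85 to 1.10).

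**Figure D4:**
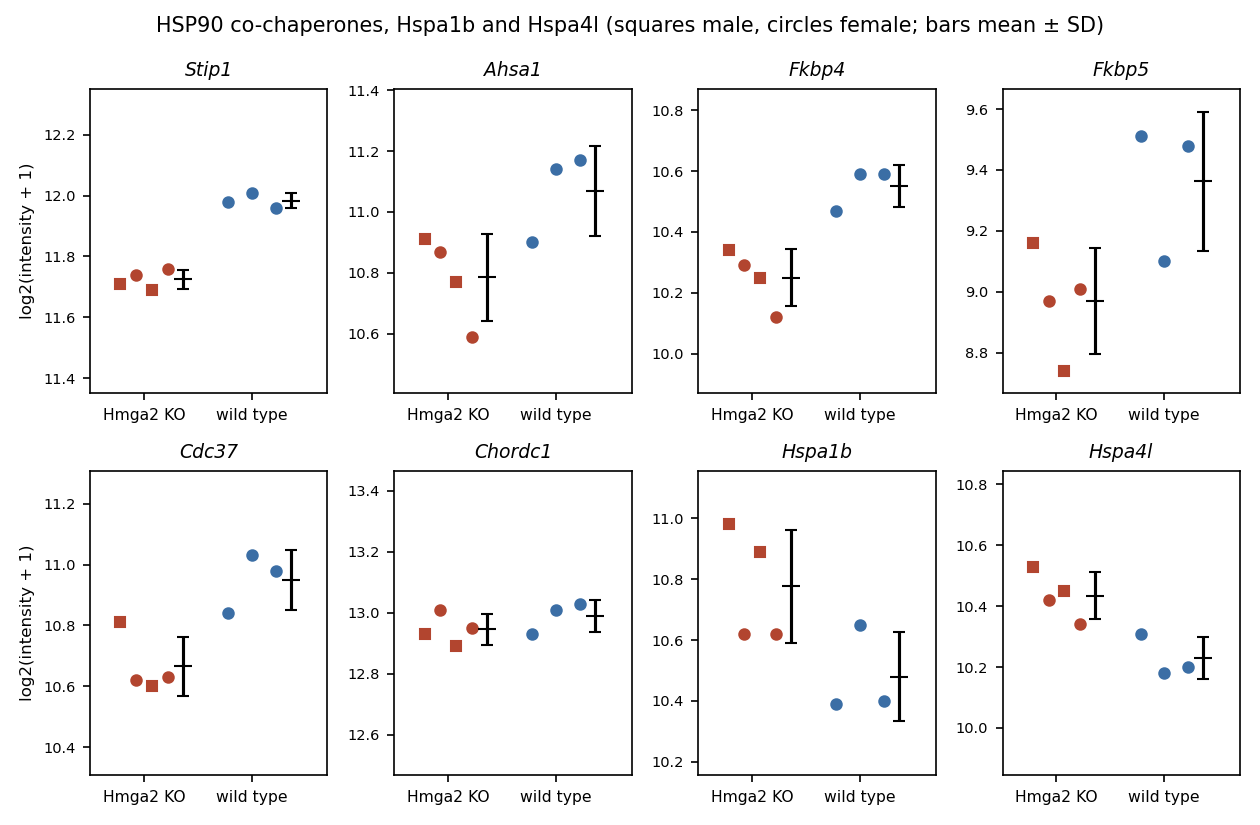
Log2(intensity + 1) of 6 HSP90 co-chaperones, Hspa1b and Hspa4l in each sample, Hmga2 KO left of wild type, squares male and circles female, bars mean ± SD; each panel has its own scale. Stip1, Fkbp4 and Cdc37 are lower in all 4 Hmga2 KO samples than in any wild type sample, and Hspa4l is higher.

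HSP70 and HSP110 proteins were the 1 role with members higher in Hmga2 KO samples at an unadjusted p under 0.05, and their median log2 change was -0.02 over 8 genes. Hspa1b, a stress-inducible HSP70, had 2022, 1576, 1892 and 1575 in Hmga2 KO replicates 1 to 4, against 1338, 1605 and 1351 in wild type replicates 1 to 3. The male Hmga2 KO replicates 1 and 3 were the highest, while the female replicates 2 and 4 lay just below wild type replicate 2. The log2 change was 0.30 (SE 0.125, adjusted p = 0.356), and 0.14 in females alone. The other 2 probe sets of Hspa1b gave 0.32 and 0.18.

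Hspa1a, its near-identical neighbour on chromosome 17, had 71.4, 84.0, 102 and 84.3 in Hmga2 KO replicates 1 to 4, against 74.9, 97.1 and 86.9 in wild type replicates 1 to 3. Probe sets of Y-linked genes read up to 58.2 in the 5 female samples, so the Hspa1a probe set stood little above background and the groups overlapped (log2 change -0.02, SE 0.139, adjusted p = 0.968). The promoters are shown because they show how alike the neighbouring genes are. The 250 bases before the start, at chr17:34959239-34959488 for Hspa1b and chr17:34972157-34972406 for Hspa1a on the minus strand of GRCm38.p6 (RefSeq), are given 5′ to 3′ with the heat shock element, from -104 in both, in capitals.
Hspa1b: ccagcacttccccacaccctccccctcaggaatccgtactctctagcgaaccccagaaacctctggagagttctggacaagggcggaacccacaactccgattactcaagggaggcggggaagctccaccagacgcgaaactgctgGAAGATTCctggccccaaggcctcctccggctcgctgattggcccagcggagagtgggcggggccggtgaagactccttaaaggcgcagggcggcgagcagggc
Hspa1a: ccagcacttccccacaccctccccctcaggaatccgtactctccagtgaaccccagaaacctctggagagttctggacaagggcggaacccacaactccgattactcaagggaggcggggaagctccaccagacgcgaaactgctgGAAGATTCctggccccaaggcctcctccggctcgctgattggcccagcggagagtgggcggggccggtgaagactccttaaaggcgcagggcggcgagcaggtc
The promoters were identical at 247 of 250 bases (98.8%), with the same element at the same place. Which of the paired transcripts the Hspa1b probe sets read was not tested.

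Hspa4l, an HSP110-like exchange factor, had 1473, 1365, 1402 and 1296 in Hmga2 KO replicates 1 to 4, against 1268, 1156 and 1174 in wild type replicates 1 to 3. The groups did not overlap (log2 change 0.21, SE 0.0898, adjusted p = 0.374; 0.15 in females alone), but its probe sets disagreed. A second probe set of Hspa4l gave a change of -0.03 and another -0.10, while 2 more gave 0.28 and 0.30. The second was about as bright as the one used, averaging 1290 in Hmga2 KO and 1310 in wild type samples, against 1380 and 1200. The higher values of Hspa4l therefore rest on the choice of probe set. Hspa8, the constitutive HSP70, had 17504, 18408, 17414 and 17178 in Hmga2 KO replicates 1 to 4, against 17875, 18313 and 19734 in wild type replicates 1 to 3. Its groups overlapped, with a log2 change of -0.08 (95% interval of the fold 0.83 to 1.08). Hspa2, Hspa4, Hspa14 and Hsph1 had log2 changes of -0.16 to 0.05 with overlapping groups.

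The heat shock factor Hsf2 had 72.7, 158, 176 and 95.3 in Hmga2 KO replicates 1 to 4, against 128, 126 and 102 in wild type replicates 1 to 3. The Hmga2 KO samples lay on both sides of the wild type samples, and the log2 change was 0.00 (SE 0.283, 95% interval of the fold 0.64 to 1.55). This interval is wide, so a moderate difference in Hsf2 was not detectable with these arrays.

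Mitochondrial chaperones had log2 changes of -0.22 to -0.09, with overlapping groups for all 3. Hspa9, the HSP70 of the mitochondrial matrix, had 10617, 12719, 11276 and 10530 in Hmga2 KO replicates 1 to 4, against 11879, 12696 and 14030 in wild type replicates 1 to 3. The Hmga2 KO replicate 2 was within the wild type range (log2 change -0.19, SE 0.106, adjusted p = 0.457). Hspd1 and Hspe1, the HSP60 and HSP10 of the same folding chamber, had log2 changes of -0.22 and -0.09, with adjusted p of 0.474 and 0.733. These genes start 215 bases apart in opposite directions, and the stretch between them is shown because it serves as the promoter of both. It lies at chr1:55087933-55088147 of GRCm38.p6 (RefSeq), given 5′ to 3′ on the plus strand with 3 overlapping heat shock elements of 2 units in capitals.
Hspe1-Hspd1: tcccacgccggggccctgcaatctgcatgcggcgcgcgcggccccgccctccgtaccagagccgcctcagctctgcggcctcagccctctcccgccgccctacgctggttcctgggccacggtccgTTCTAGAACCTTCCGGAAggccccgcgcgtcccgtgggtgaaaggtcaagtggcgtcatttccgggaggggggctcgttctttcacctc
Read towards Hspe1 the elements begin at -89, -84 and -79, and read towards Hspd1 at -144, -139 and -134.

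J-domain proteins had log2 changes of -0.34 to -0.01 over 8 genes, all below 0, against 67.6% of all genes. Of the 8, 0 reached an unadjusted p under 0.05, against 10.3% of all genes lower and 2.99% higher. So few genes cannot set the family apart from these shares. Dnaja4, a J-domain protein rich in muscle and heart, had 1035, 1561, 1214 and 1472 in Hmga2 KO replicates 1 to 4, against 1503, 1909 and 1560 in wild type replicates 1 to 3. The male Hmga2 KO replicates 1 and 3 were the lowest, and the female replicate 2 lay within the wild type range (log2 change -0.34, SE 0.158, adjusted p = 0.395; -0.12 in females alone). Dnajb6, which keeps aggregation-prone proteins soluble, ranged from 10353 to 10957 in Hmga2 KO samples and from 9915 to 11287 in wild type samples, a log2 change of -0.01. Among its weaker probe sets, 1 gave -0.31.

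The CCT chaperonin, the ring that folds actin and tubulin, had a median log2 change of -0.17 over 7 measured subunits. Cct7 had 4468, 5451, 4440 and 4181 in Hmga2 KO replicates 1 to 4, against 5052, 5738 and 6021 in wild type replicates 1 to 3. The Hmga2 KO replicate 2 lay above wild type replicate 1 (log2 change -0.28, SE 0.118, adjusted p = 0.362), and a second probe set of Cct7 gave -0.27. Cct4 had 10956, 11867, 10847 and 11000 in Hmga2 KO replicates 1 to 4, against 10749, 12848 and 13436 in wild type replicates 1 to 3. Here wild type replicate 1 was the lowest sample of all 7 (log2 change -0.14, SE 0.103, adjusted p = 0.571). The weakest probe sets of Cct4, averaging 620 and 492 in Hmga2 KO samples, gave 0.32 and 0.07. Cct2 had 11078, 11339, 11993 and 10464 in Hmga2 KO replicates 1 to 4, against 10299, 9702 and 12157 in wild type replicates 1 to 3. Its log2 change of 0.07 (SE 0.106, adjusted p = 0.801) was the 1 value above 0 among the subunits, and the groups overlapped. Tcp1, Cct3, Cct5 and Cct8 had log2 changes of -0.21 to -0.10.

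BAG factors release ADP from HSP70 and so let go of its clients. Bag3, the partner of Hspb8, had 2976, 3574, 3367 and 3290 in Hmga2 KO replicates 1 to 4, against 2977, 3479 and 3650 in wild type replicates 1 to 3. The ranges nearly coincided (log2 change -0.03, SE 0.108, adjusted p = 0.931). Bag2, which inhibits the ubiquitin ligase CHIP bound to HSP70, had 675, 508, 826 and 443 in Hmga2 KO replicates 1 to 4, against 616, 670 and 569 in wild type replicates 1 to 3. The male Hmga2 KO replicates 1 and 3 lay above all wild type samples, and the female replicates 2 and 4 lay below all of them. The log2 change over all samples was -0.05 (adjusted p = 0.927) and that in females alone -0.38 (adjusted p = 0.663).

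Male and female Hmga2 KO samples were then compared in a fit of 3 groups. Of the 46 members, 0 passed an adjusted p under 0.05, against 0.0385% of all genes. At an unadjusted p under 0.05, 4 members were lower in male Hmga2 KO samples (8.70%, against 3.64% of all genes) and 2 were higher (4.35%, against 2.65% of all genes). Male minus female, the log2 difference was -0.90 for Hspb7 (SE 0.177, adjusted p = 0.303), -0.90 for Hspb3 (SE 0.328, adjusted p = 0.672), -1.32 for Unc45b (SE 0.443, adjusted p = 0.636) and -0.43 for Dnaja4 (SE 0.157, adjusted p = 0.671). The higher members were Bag2, at 0.65 (SE 0.153, adjusted p = 0.444), and Hspa1b, at 0.31 (SE 0.136, adjusted p = 0.793). Of the 28 fibre markers, 20 were also lower in male Hmga2 KO samples at an unadjusted p under 0.05. With 2 samples of each sex and no male wild type sample, sex and the spread between preparations cannot be told apart.

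With the 2 male samples set aside, 5 members had lower values in Hmga2 KO females than in wild type females at an unadjusted p under 0.05 (10.9%, against 4.62% of all genes), and 0 had higher values (against 2.21% of all genes). The 5 were Bag2, Hspb3, Fkbp4, Fkbp5 and Cdc37, and 0 members passed an adjusted p under 0.05. The median log2 change of the muscle-enriched small heat shock proteins was -0.32 in females, against -0.77 over all samples. The HSP90 co-chaperones other than Unc45b had -0.33 in females, against -0.28 over all samples. The fits share the wild type samples, so these values are set side by side and their difference was not tested.

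**Figure D5:**
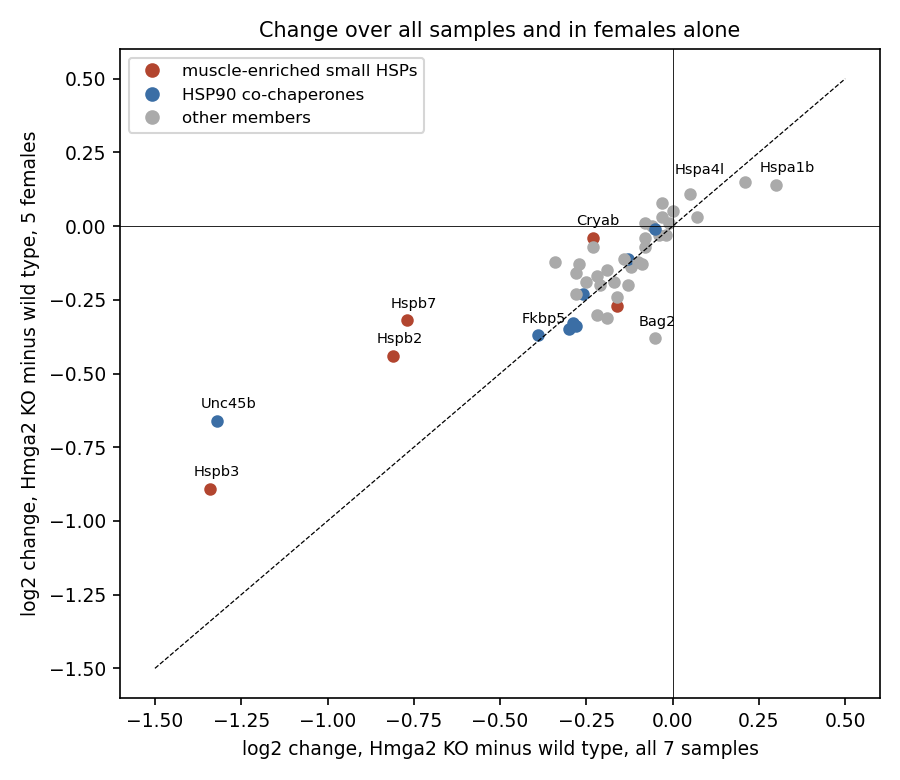
Log2 change, Hmga2 KO minus wild type, of each measured member in the 5 females (vertical) against all 7 samples (horizontal), with the line of equal change dashed. Hspb2, Hspb3, Hspb7 and Unc45b lie above the line, closer to 0 in females, whereas Bag2 lies below it.

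Other genes of the chaperone network served as a comparison: 48 genes outside the group, of which 46 were measured. Of these, 12 were lower in Hmga2 KO samples at an unadjusted p under 0.05 (26.1%, against 10.3% of all genes and 13.8% of those outside the dimmest 40%) and 1 was higher (2.17%, against 2.99% and 3.44%). The groups did not overlap, lower, for 12 of the 46, against 9.29% of all genes and 11.1% of those outside the dimmest 40%. Hspb9, among these 12, and Hspa12b, the 1 higher gene, were dimmer than Hspb7 and so within the dimmest 40% themselves. None passed an adjusted p under 0.05, the smallest being 0.224, and the median log2 change was -0.17, close to the -0.16 of the members. The 8 with the smallest p were Aarsd1 (-0.41), Hspbp1 (-0.32), Grpel2 (-0.34), Bag5 (-0.35), Pih1d1 (-0.35), Lonp1 (-0.39), Fkbp8 (-0.35) and Nudc (-0.26), as log2 changes. Hspbp1 and Bag5 are exchange factors of HSP70, Pih1d1 is part of an HSP90 co-chaperone complex, and Grpel2 and Lonp1 act in mitochondria.

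Heat shock elements were common in the promoters of the members, from 250 bases before to 50 after the start, for the 40 measured members with a window in RefSeq. A pair of inverted units, GAANNTTC or TTCNNGAA, each the same when read on the other strand, was found in 19 of 40 members (47.5%), against 17.0% of 27025 genes. A run of 3 units, GAANNTTCNNGAA or TTCNNGAANNTTC, which contains the pair and was searched on both strands, was found in Chordc1, Dnajb6, Hspd1, Hspe1 and Hsph1, 5 of 40 (12.5%), against 0.662% of genes. The median log2 change was -0.09 in the 19 members with the pair and -0.17 in the 21 without it. The 5 members with 3 units had a median log2 change of -0.05, against -0.17 in the 35 without them. None of the 5 reached an unadjusted p under 0.05, against 10.3% of all genes lower and 2.99% higher. With 5 genes, of which Hspd1 and Hspe1 share the same elements, this cannot be set apart from those shares.

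Of the 46 members, 31 had several probe sets, and 27 had several with a mean intensity of 100 or more in either group. In 17 of these 27 all such probe sets had changes of 1 sign. Hspb8, Hspa1b and Cdc37 were among the 17, while Hspa4l, Cct4 and Cct2 were not.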

How the data were processed

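The myoblast RNA was extracted with Trizol and labelled with biotin for Affymetrix mouse arrays, as the labels' protocols state. The authors deposited an intensity on a linear scale for 45101 probe sets in each of the 7 samples. Every array has a median of 150, and the lowest intensities, between 33.2 and 36.7, form a floor at which folds of dim genes are understated. No source used here names the summarization method, the background correction or the software, and the number of arrays limits the precision.

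Genes were assigned from the platform table, which pairs 34945 probe sets with 1 gene, 932 with several (left out) and 9160 with none, beside 64 controls. For 34741 of those with 1 gene, the identifier is in RefSeq (GRCm38.p6), and the table itself names no build. The deposited intensities were taken as log2(intensity + 1), unnormalized otherwise, and all changes are on that scale. The brightest probe set on average stood for each of 18193 genes. Groups come from the titles. The test was limma 3.58.1 (lmFit, eBayes) run in R 4.3.3 without covariates, with p-values adjusted by Benjamini-Hochberg over all 18193 genes and called under 0.05. A fit of 3 groups set male against female Hmga2 KO samples. The fits were tested on simulated data.

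Members and lists were chosen with earlier results of these data known. Values in every sample are given for the small heat shock proteins, Hspa1a, Hspa1b, Hsf2, Unc45b, Bag3, the 5 brightest members, and members with an unadjusted p under 0.05 in either comparison or with groups that did not overlap. The order of the Hmga2 KO samples in Unc45b and the background outside the dimmest 40% of genes were taken up after values were seen. Promoters were read from RefSeq (GRCm38.p6).

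Alternatives changed 1 choice at a time: a sex covariate, a fit of the females, a replicate block, each sample left out, median centring, quantile normalization, no genes from the dimmest 40%, probe sets averaged or picked by variance, a robust prior with a trend, weights on arrays, and a pseudocount of 16. The titles number the replicates in both groups, and the block uses those numbers; the description and the source name of Hmga2 KO replicate 2 disagree on its number. The deviations of samples with the same number correlated at 0.31, 0.37 and -0.18, so the title numbers are not shown to pair the samples. Labels give no scan date or batch.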

Additional observations from a re-analysis of the deposited data

Results flagged for a closer look

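Values that stood apart within the 4 Hmga2 KO samples were sought for 26 members by Dixon's test, in which the gap of the highest or lowest sample is set against the whole range and chance alone picks about 1 in 20 groups. Hspb8 had a log2 level of 12.94 in the male Hmga2 KO replicate 1, below the other Hmga2 KO samples. Cct4 had 13.53 in the female Hmga2 KO replicate 2, above the others, with a ratio of 0.844. Cdc37 had 10.81 in the male Hmga2 KO replicate 1, above the others, with a ratio of 0.895, and without that sample its log2 change was -0.33 in place of -0.29.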

How the results depend on the processing

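The count of members past an adjusted p of 0.05 was 0 under every alternative tried except the replicate block, which gave 3: Hspb2 (-0.89, adjusted p = 0.0384), Hspb3 (-1.46, adjusted p = 0.009) and Unc45b (-1.42, adjusted p = 0.0357). This block rests on the title numbers, which are not shown to pair the samples, and the other labels of Hmga2 KO replicate 2 differ in the number they give it. How many of all genes passed under the block is not given, so the 3 cannot be set against a background share. Between male and female Hmga2 KO samples the count was 0 throughout. Members lower at an unadjusted p under 0.05 numbered 10, but 5 with sex as a covariate, 5 in females alone, 6 under quantile normalization and 4 to 15 when 1 sample was left out. Members higher numbered 2, but 0 with sex as a covariate, in females alone and with the mean of all probe sets, 1 with the replicate block, the most variable probe set, the trended and robust prior or array weights, and 0 to 2 when 1 sample was left out. Over all genes, 1878 were lower, but 933 with sex as a covariate and 840 in females alone. Those higher were 544, 412 and 402 in the same order. Counts over all genes are not given for the other alternatives named here, so those shifts cannot be read as particular to the members. The median change of the muscle-enriched small heat shock proteins, -0.77, was -0.32 with sex as a covariate and in females alone, and -0.97 to -0.49 when 1 sample was left out, -0.49 being that without wild type replicate 2. That of the other members, -0.13, was -0.22 to -0.10 when 1 sample was left out. Of 465 changes of 26 members under the alternatives, 435 kept their direction and side of the threshold, 3 passed it and 27 reversed, the last from changes of -0.16 to 0.00. Not all of these are separate checks. Median centring could change nothing, since the arrays share 1 median. The sex covariate gave the same changes as females alone, since every wild type sample is female. The replicate block gave the same changes as leaving out Hmga2 KO replicate 4, since no wild type sample has that number. For Bag2 both gave 0.09, and for Dnaja4 both gave -0.40. Leaving out 1 sample gave -0.21 to 0.09 for Bag2, -0.11 to 0.03 for Bag3, -0.20 to 0.22 for Hsf2, -0.11 to 0.07 for Hspa1a and -0.30 to 0.02 for Hspb6. Bag2 turned to 0.09 under the replicate block, 0.03 under quantile normalization. Bag3 turned to 0.03 with sex as a covariate and in females alone and 0.04 under quantile normalization. Hsf2 turned to 0.05 with sex as a covariate and in females alone, 0.10 under the replicate block, 0.01 with the mean of probe sets, 0.04 with array weights and 0.00 with a pseudocount of 16. Hspa1a turned to 0.02 with array weights. Cct4 turned to 0.32 with the most variable probe set, and Hsp90aa1 to 0.16 with it and 0.00 with the mean of probe sets. The causes were not tested. Hsf2, Hspa1a and Hspb7 had no value without the dimmest 40% of genes. With 4 against 3 arrays and every male in the Hmga2 KO group, changes of the size seen here in Stip1 or Fkbp4 did not pass the adjustment over 18193 genes.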
